A study of Bos taurus with 14 samples.

Results

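bta-miR-223 and both arms of bta-miR-142, bta-miR-142-5p and bta-miR-142-3p, were followed across the small RNA libraries of peripheral white blood cells (PWBC) from 14 heifers. These 3 mature miRNAs were taken by name from a count table of 1030 mature miRNAs, each has a single entry there, and all 3 were among the 341 miRNAs retained after filtering. The heifers were Angus-Simmental crossbreds bled at weaning, before any breeding, and the labels give no treatment. Those in the fertile group (FH, n = 7) later became pregnant to artificial insemination (AI), whereas those in the subfertile group (SFH, n = 7) did not conceive to AI or, per the methods of the study, to bulls, and both groups went through the same estrus synchronization, AI and bull exposure. Each library is 1 heifer, and PWBC are an unsorted mixture of granulocytes, lymphocytes and monocytes whose proportions were not given. A difference in a miRNA level in such bulk samples cannot tell fewer cells of a type apart from less RNA per cell.

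A miRNA is cut from a hairpin precursor, whose arms at the 5′ and 3′ ends can each yield a mature miRNA. The mature strand is loaded into an Argonaute protein and represses mRNAs that pair with its seed, the bases near its 5′ end. miR-223 is known as a myeloid miRNA, abundant in granulocytes and monocytes and also in platelets, and it restrains granulocyte production and inflammatory responses. miR-142 is made almost exclusively by blood cells, in both lymphoid and myeloid lineages, and its arms have different seeds and so different targets. In the RefSeq annotation of the cattle assembly ARS-UCD2.0, a later assembly than the files use, the precursor gene *MIR223* overlaps *VSIG4* and a long non-coding RNA gene and lies between *HEPH* and *MSN*. The precursor gene *MIR142* overlaps *TSPOAP1* and a long non-coding RNA gene, and its nearest coding genes on either side are *MPO*, which encodes the myeloperoxidase of granulocytes, and *SUPT4H1*.

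The libraries held 1754971 to 5468341 counts on mature miRNAs per heifer (median 2870197). CPM, the scaled counts of the deposited table, are relative to the counts on the 341 retained miRNAs of a heifer, and TMM-normalized CPM are CPM rescaled by edgeR's trimmed mean of M-values. Where no read was counted, up to 3 counts (0.549 to 1.71 CPM) remain possible by counting error alone. Red blood cell miR-451 was present at 815 to 2180 CPM in FH and 949 to 7068 CPM in SFH, with the highest value in SFH heifer 30, and miR-144 of the same lineage had 0 counts in all 14 heifers. The liver marker miR-122 was counted in 4 heifers and was not among the retained miRNAs.

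Groups were compared with edgeR's quasi-likelihood test, as SFH relative to FH. The thresholds of the study were applied, namely a p-value up to 0.05 together with a log2 fold change of 0.5 or more in either direction. In the fit over the 341 miRNAs, 3.81% passed both, 5.87% passed the p-value threshold alone, and 0% had a Benjamini-Hochberg adjusted p-value within it (2 miRNAs did in DESeq2 and 0 in limma-voom).

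bta-miR-223 was the 13th most abundant of the 341 miRNAs by mean CPM and took 1.84 ± 0.466% of the counts of a heifer (SD, n = 14). It was among the 20 most abundant miRNAs of every heifer, with ranks from 11 to 19. bta-miR-142-5p took 1.23 ± 0.463% of the counts (SD, n = 14) and ranked 19th by mean CPM, with ranks from 13 to 37 in single heifers. bta-miR-142-3p took only 0.0148 ± 0.00776% of the counts (SD, n = 14), ranked 139th by mean CPM, and was below rank 100 in all 14 heifers. bta-miR-223 and bta-miR-142-5p were thus both abundant, whereas the counts on the arms of miR-142 lay far apart. The 3p count depends on where miRBase places that arm in cattle, which was not checked here. Within a library, bta-miR-223 exceeded bta-miR-142-5p in 13 of the 14 heifers, with 0.820 to 3.57 counts of bta-miR-223 for each count of bta-miR-142-5p. The exception was SFH heifer 28, and the highest ratio was in FH heifer 25. The most abundant miRNAs of these libraries were bta-miR-26a, bta-let-7a-5p, bta-miR-150, bta-miR-21-5p and bta-let-7f. Counts of different miRNAs were not adjusted for length or for the efficiency with which each end is ligated, so these are ratios of counts.

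The level of bta-miR-223 was compared between groups to ask whether this myeloid miRNA differed at weaning between heifers with different later outcomes. In FH it had a lowest value of 11535 (heifer 31), a median of 16776 and a highest value of 23351 TMM-normalized CPM (heifer 29). In SFH the lowest value was 14396 (heifer 32), the median 19802 and the highest 25366 TMM-normalized CPM (heifer 30). The groups overlapped: 3 FH heifers lay below every SFH heifer and 2 SFH heifers above every FH heifer, while the other 9 heifers were interleaved. Averaged over 7 heifers, FH had 16974 ± 4833 and SFH had 19812 ± 4513 TMM-normalized CPM (± SD). The log2 fold change (SFH relative to FH) was 0.22 (standard error 0.19), with a p-value of 0.254 and a Benjamini-Hochberg adjusted p-value of 0.947 from the quasi-likelihood test of edgeR. Group means of log2(TMM-normalized CPM + 0.5) differed by 0.24 with a 95% interval of −0.20 to 0.68 (two-sided exact permutation p = 0.245, 7 heifers per group). This is less than the SD between heifers of the same group, and the interval admits fold changes from 0.871 to 1.60.

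**Figure D1:**
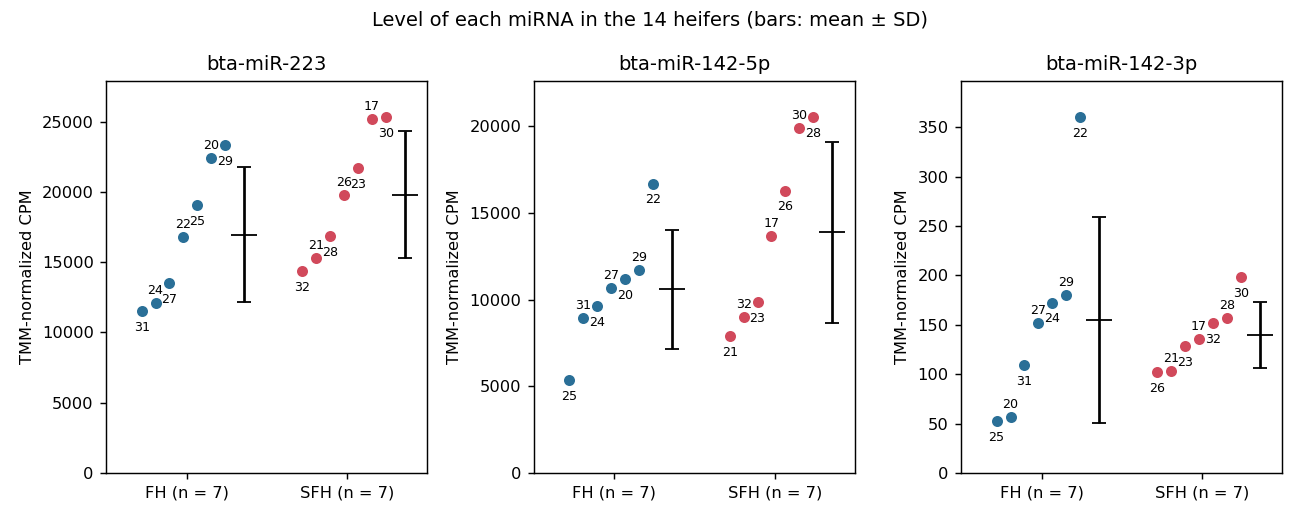
TMM-normalized CPM of bta-miR-223, bta-miR-142-5p and bta-miR-142-3p (vertical axes, each from 0) in the 7 FH (blue) and 7 SFH (red) heifers, numbered by heifer, with black bars for mean ± SD. The groups overlap for all 3 miRNAs, and FH heifer 22 stands at 361 TMM-normalized CPM of bta-miR-142-3p, above every other heifer.

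bta-miR-142-5p, the arm that made up nearly all miR-142 counts, varied more between heifers than bta-miR-223. In FH it ran from 5351 TMM-normalized CPM in heifer 25 through a median of 10661 to 16703 in heifer 22. In SFH it ran from 7887 TMM-normalized CPM in heifer 21 through a median of 13687 to 20564 in heifer 28. SFH heifers 28 and 30 were above every FH heifer, and FH heifer 25 was below every SFH heifer. In edgeR the log2 fold change was 0.39 (standard error 0.24), with a p-value of 0.120 and an adjusted p-value of 0.890 by the quasi-likelihood test. The difference in mean log2 level was 0.37 with a 95% interval of −0.24 to 0.98 (two-sided exact permutation p = 0.210, 7 heifers per group). Single heifers moved this comparison in both directions. Without FH heifer 22, the log2 fold change was 0.54 and the edgeR p-value 0.0354, past both thresholds, with an adjusted p-value of 0.670. Without SFH heifer 21 the fold change was 0.49 (edgeR p-value 0.0494), under the fold change threshold. Without SFH heifer 28 it was 0.27 (edgeR p-value 0.280), and without FH heifer 25 it was 0.28 (edgeR p-value 0.234).

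bta-miR-142-3p, the arm with fewer counts, had its widest range in FH, from 52.8 TMM-normalized CPM in heifer 25 through a median of 152 to 361 in heifer 22. SFH heifers lay closer together, from 102 TMM-normalized CPM in heifer 26 through a median of 136 to 199 in heifer 30. Thus the FH group held both the lowest pair of heifers (20 and 25) and the highest. The log2 fold change was −0.15 (standard error 0.37), with a p-value of 0.691 and an adjusted p-value of 0.977 in edgeR's quasi-likelihood test. On the log2 scale the group means differed by 0.09 in the other direction, with a 95% interval of −0.77 to 0.92 (two-sided exact permutation p = 0.830, 7 heifers per group). No direction can be given for this arm, since without FH heifer 22 the edgeR log2 fold change was 0.21.

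None of the 3 members passed the thresholds with all 14 heifers, at 0.05 or with adjusted p-values, and by p-value bta-miR-142-5p ranked 44th, bta-miR-223 ranked 90th and bta-miR-142-3p ranked 232nd of the 341. DESeq2, the tool of the study, gave log2 fold changes of 0.21 for bta-miR-223 (p-value 0.309), 0.37 for bta-miR-142-5p (0.147) and −0.17 for bta-miR-142-3p (0.654).

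The arms of miR-142 come from the same hairpin, so their ratio within a library needs no normalization. The counts follow the positions that miRBase gives for each arm, which were not checked here for the 3p arm in cattle, so this is a ratio of counts as annotated. The 5p arm had more counts than the 3p arm in all 14 heifers. Over all libraries there were 511551 counts on bta-miR-142-5p and 6002 on bta-miR-142-3p, or 85.2 counts on the 5p arm for each count on the 3p arm. In the FH heifers this ratio was 198 in heifer 20, 101 in heifer 25, 82.0 in heifer 31, 70.0 in heifer 27, 64.9 in heifer 29, 55.7 in heifer 24 and 46.3 in heifer 22. In the SFH heifers it was 159 in heifer 26, 131 in heifer 28, 101 in heifer 17, 100.3 in heifer 30, 77.1 in heifer 23, 76.2 in heifer 21 and 59.3 in heifer 32. The extremes of both directions were in FH: heifer 20 was above every SFH heifer, and heifers 22 and 24 were below every SFH heifer. Put as a share, the 3p arm held 0.502% of the miR-142 counts in FH heifer 20 (95% exact Clopper-Pearson interval 0.419 to 0.596%) and 2.11% in FH heifer 22 (1.96 to 2.28%). These intervals cover counting error only, since no molecular identifiers were described, and they do not overlap.

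**Figure D2:**
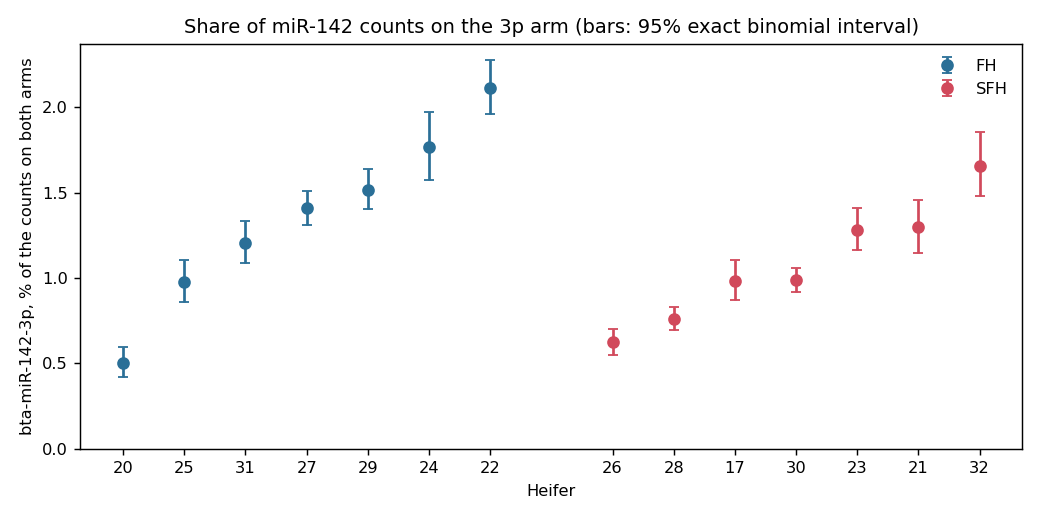
Share of the miR-142 counts that fell on bta-miR-142-3p (vertical axis, percent) in each heifer (horizontal axis), ordered within FH (blue) and SFH (red), with 95% exact binomial intervals. The share ran from 0.502% in FH heifer 20 to 2.11% in FH heifer 22, and SFH heifers lay between 0.624% and 1.66%.

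On the log2 scale the arm ratio (5p over 3p) averaged 6.30 ± 0.69 over the FH and 6.58 ± 0.49 over the SFH heifers (± SD, 7 each). The difference of 0.28 was within the spread of either group, with a 95% interval of −0.42 to 0.94 (two-sided exact permutation p = 0.402). Without FH heifer 20 the difference was 0.50 (two-sided exact permutation p = 0.0781, n = 6 and 7), and without FH heifer 22 it was 0.15 (exact permutation p = 0.650). Of the 7 SFH heifers, 6 were above the FH median of 70.0 counts of 5p per count of 3p. In TMM-normalized CPM, the SFH heifers above the FH median numbered 5 for bta-miR-223, 4 for bta-miR-142-5p and 2 for bta-miR-142-3p.

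The miR-142 ratio was set beside those of all miRNAs for which both the 5p and the 3p arm were retained, 31 with bta-miR-142 itself. Of these, bta-miR-10174 and bta-miR-23b had the same counts on both arms in every heifer, so that 30 of the 31 ratios were distinct, and both are included in the counts given here. The 5p arm was the higher in 14 of these and the 3p arm in 17. By mean log2 ratio, bta-miR-142 ranked 5th from the most 5p-biased, and the nearest to it were bta-miR-30b with 6.51, bta-miR-362 with 7.26 and bta-miR-17 with 7.52. The arm with fewer counts had a median of only 7.5 counts for bta-miR-362 and 34.5 for bta-miR-17, with 0 in some heifers. The 0.5 added to the counts thus weighs on both of these means, and the rank is to be read with that limit. bta-let-7a was the most 5p-biased, with 9.34. Among the 31 miRNAs 3.23% had an arm ratio that differed between SFH and FH at an unadjusted p-value up to 0.05 by exact two-sided permutation, and bta-miR-142 was not among them. The smallest Benjamini-Hochberg adjusted p-value over the 31 was 0.506 in the same exact permutation test, and that of bta-miR-142 was 0.664.

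The miR-142 arm ratio was steady between heifers compared with most of these. Its SD over 14 heifers was 0.59 on the log2 scale, where the median over the 31 miRNAs was 2.19 and 27 had a larger SD. Only bta-miR-151 (0.42), bta-miR-425 (0.47) and bta-miR-22 (0.50) had a smaller SD, and bta-miR-2483 (4.21), bta-miR-424 (3.98) and bta-miR-129 (3.89) had the largest. Many of the wide ratios rest on arms with counts near 0. Among the 13 miRNAs with a median of at least 100 counts on both arms the median SD was 0.76, and bta-miR-142 ranked 10th by SD.

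**Figure D3:**
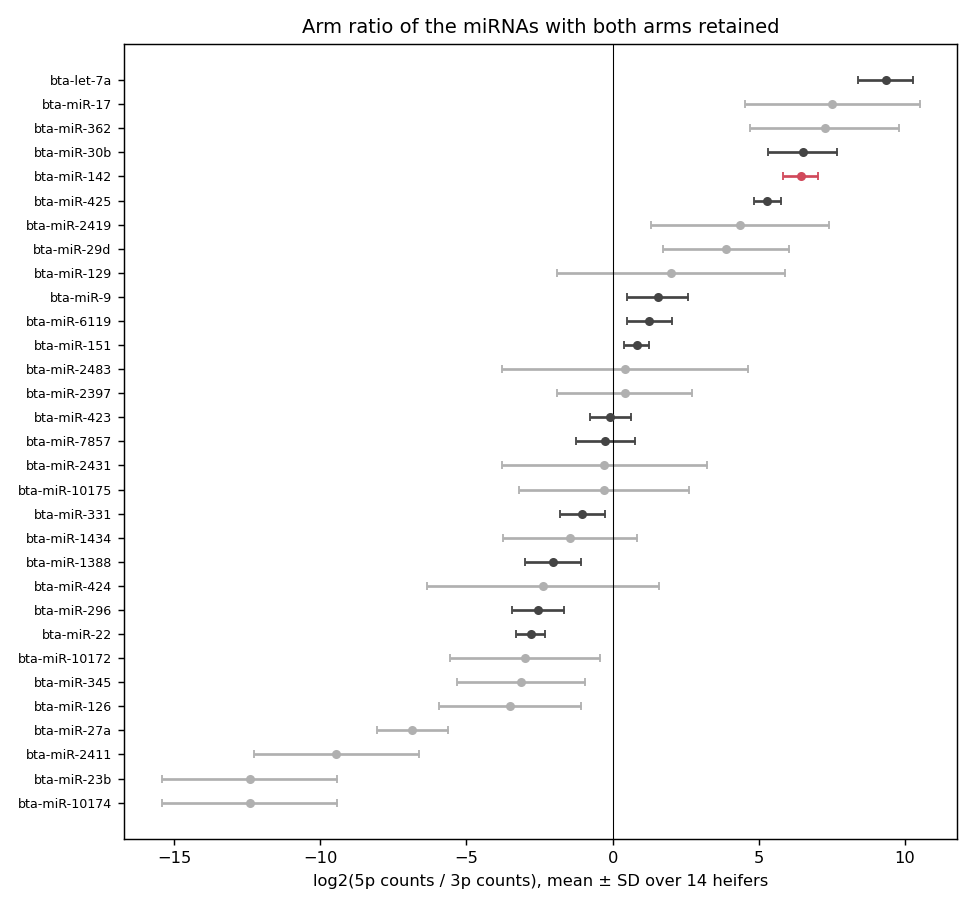
Mean log2 ratio of 5p to 3p counts (horizontal axis, with bars of ± SD over 14 heifers) for the 31 miRNAs with both arms retained (vertical axis). bta-miR-142 (red) lies at 6.44 with an SD of 0.59, dark points have a median of at least 100 counts on both arms, and grey points have fewer.

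Spread between heifers was also compared for each member on its own. The coefficient of variation of CPM over the 14 heifers was 25.4% for bta-miR-223, 37.7% for bta-miR-142-5p and 52.6% for bta-miR-142-3p. Counting error alone would give at most 0.681% for bta-miR-223, 0.765% for bta-miR-142-5p and 8.80% for bta-miR-142-3p in the heifer with the fewest counts. On the log2 scale the SD of TMM-normalized CPM was 0.38, 0.54 and 0.71 in the same order, against a median of 0.92 over the 341 miRNAs. Since the SD falls with abundance, each member was set beside up to 20 miRNAs above and 20 below it in mean level. bta-miR-223 was in the middle of this range, as 13 of its 32 neighbours had a larger SD (their median was 0.33). bta-miR-142-5p was more variable than most miRNAs of its level, as only 4 of its 38 neighbours had a larger SD (median 0.33). Of the 40 neighbours of bta-miR-142-3p, 14 had a larger SD (median 0.59).

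**Figure D4:**
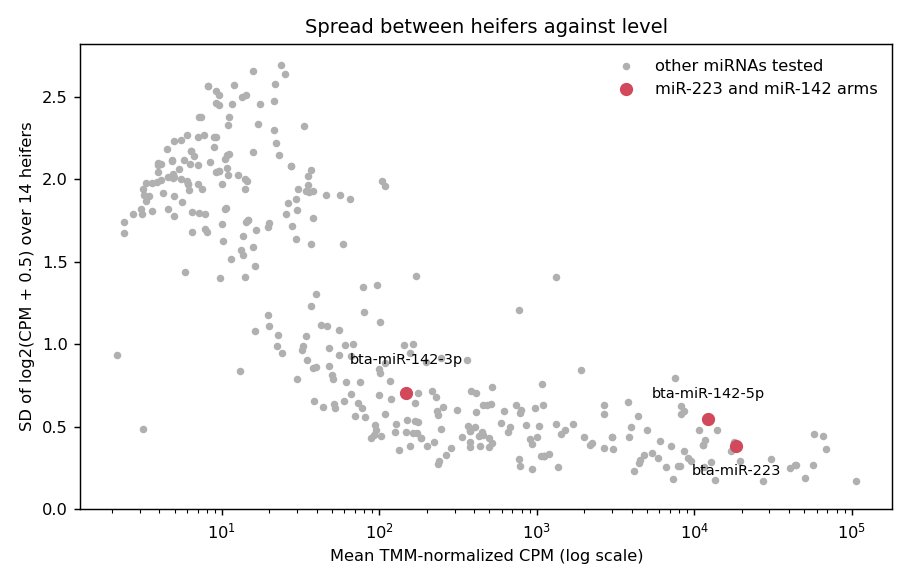
SD of log2(TMM-normalized CPM + 0.5) over 14 heifers (vertical axis) against mean TMM-normalized CPM (horizontal axis, log scale) for the 341 miRNAs tested, with the 3 members in red. bta-miR-142-5p, with an SD of 0.54, lies near the top of the miRNAs of its level, and bta-miR-223 lies at 0.38.

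The groups were not clearly different in spread. For bta-miR-142-3p the mean absolute deviation from the group median was 0.73 in FH and 0.26 in SFH on the log2 scale (two-sided exact permutation p = 0.113, 7 heifers per group). This value depended on the centre: with deviations from the group mean the exact two-sided permutation p was 0.0390, unadjusted over the 4 spreads compared. It was 0.34 in FH and 0.27 in SFH for bta-miR-223 (two-sided exact permutation p = 0.448), and 0.32 and 0.46 for bta-miR-142-5p (p = 0.408 by the same permutation test). For the log2 arm ratio it was 0.47 in FH and 0.37 in SFH (two-sided exact permutation p = 0.705).

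No relation between the levels of the members passed adjustment, and all values share the scaling of their library. Across the 14 heifers bta-miR-142-5p and bta-miR-142-3p had Pearson's r = 0.58 (permutation p = 0.0286, adjusted 0.157 over 11 relations) and Spearman's rho = 0.56 (permutation p = 0.0417, adjusted 0.224). Without FH heifer 25 and SFH heifer 28, the 2 farthest from the median of the 5p arm, r was 0.41. Within FH r was 0.76 (exact permutation p = 0.0498, n = 7) and within SFH it was 0.50 (exact permutation p = 0.253, n = 7). bta-miR-223 had r = 0.35 with bta-miR-142-5p (permutation p = 0.213, adjusted 0.585) and rho = 0.52 (permutation p = 0.0610, adjusted 0.224), and r was 0.27 without FH heifers 24 and 31. Within FH that r was 0.08 (exact permutation p = 0.887, n = 7) and within SFH 0.49 (exact permutation p = 0.242, n = 7). With bta-miR-142-3p it had r = −0.10 (permutation p = 0.726, adjusted 0.726) and rho = 0.03 (permutation p = 0.929, adjusted 0.929), r was −0.12 without FH heifers 24 and 31, and the groups gave −0.27 in FH (exact permutation p = 0.539, n = 7) and 0.30 in SFH (exact permutation p = 0.497, n = 7).

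Red blood cell RNA was followed through miR-451, a miRNA of maturing red cells. Across heifers bta-miR-451 had r = 0.65 with bta-miR-142-5p (permutation p = 0.0122, adjusted 0.134) and rho = 0.64 (permutation p = 0.0151, adjusted 0.166), and r was 0.54 without SFH heifers 17 and 30. Within FH r was 0.58 (exact permutation p = 0.173, n = 7) and within SFH 0.66 (exact permutation p = 0.0980, n = 7). The log2 fold change of bta-miR-451 was 0.72 (standard error 0.39) with a p-value of 0.0794 and an adjusted p-value of 0.890 in edgeR's quasi-likelihood test. It passed both thresholds without SFH heifer 21, 23 or 26 (0.84, 0.86 and 0.86) and without a filter on low counts (0.73). Without SFH heifer 30, which had 7068 CPM, it did not pass both. The group medians of bta-miR-451 lay close together, at 1261 CPM in FH and 1362 CPM in SFH. Its means were 1412 ± 531 and 2398 ± 2191 CPM (± SD, 7 heifers each). bta-miR-486, the other red blood cell miRNA tested, had a log2 fold change of −0.05 (standard error 0.35). Its p-value was 0.891 and its adjusted p-value 0.977 in the same quasi-likelihood test. It averaged 1081 ± 613 CPM over the FH and 1084 ± 579 CPM over the SFH heifers (± SD, 7 each). Its relation to the members was not tested. The part of red cell RNA in the level of bta-miR-142-5p was not tested. Between bta-miR-451 and bta-miR-223, r was 0.42 (permutation p = 0.136, adjusted 0.499) and rho 0.40 (permutation p = 0.160, adjusted 0.431). This r was −0.0038 without SFH heifers 17 and 30, the 2 farthest from the median of bta-miR-451. Within FH it was 0.20 (exact permutation p = 0.628, n = 7) and within SFH 0.53 (exact permutation p = 0.207, n = 7).

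The miRNAs whose levels ordered the heifers most like each member were found over 14 heifers by Spearman's rho on log2(TMM-normalized CPM + 0.5), as a description. For bta-miR-223 these were bta-miR-362-5p (rho 0.80), bta-miR-145 (0.78) and bta-miR-30b-3p (0.76). For bta-miR-142-5p these were bta-miR-30b-5p (0.85), bta-let-7g (0.74) and bta-miR-2484 (0.73). For bta-miR-142-3p these were bta-miR-29d-5p (0.82), bta-miR-32 (0.78) and bta-miR-374a (0.75). The median rho with all other miRNAs was between −0.06 and −0.01 for the 3 members, and no other arm of miR-142 or miR-223 was on these lists. The listed values were picked as the largest for each member, so that median is no measure of chance for them. Some listed miRNAs had low levels, down to a mean of 19.3 CPM for bta-miR-145.

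The members were read beside other miRNAs of blood cell lineages. Apart from the members, 17 miRNAs were listed for myeloid cells, lymphocytes, red blood cells, and platelets with endothelium, of which 16 were tested. In the edgeR fit of the 341 miRNAs, 0 of the 16 passed both thresholds in either direction and 1 had an unadjusted p-value within 0.05, where 3.81% and 5.87% of all miRNAs did. Without a filter on low counts, or without SFH heifer 21, 23 or 26, bta-miR-451 was the 1 of the 16 that passed both. DESeq2 and limma-voom gave 0 of the 16 by either criterion. Their median log2 fold change was 0.02, and 8 of the 16 were above 0. Over all 341 miRNAs the median was 0.06, and 188 of the 341 were above 0. In the myeloid list, bta-miR-24-3p, which lies in clusters with miR-23 and miR-27, averaged 5042 ± 1106 CPM over the FH and 7038 ± 1672 CPM over the SFH heifers (± SD, 7 each). Its log2 fold change was 0.40 (standard error 0.19), with a p-value of 0.0456 and an adjusted p-value of 0.828 in edgeR's quasi-likelihood test, under the fold change threshold. bta-miR-21-5p, bta-miR-23a and bta-miR-146b of that list had log2 fold changes of 0.16, 0.08 and 0.49, bta-miR-27a-3p had −0.27, and bta-miR-424-5p, with counts in 8 heifers, had −1.76 (standard error 1.48). With bta-miR-223 included, 5 of the 7 miRNAs in the myeloid list were above 0, with a median of 0.16. Whether the listed miRNAs are particular to the cells they are listed for was not tested. In the lymphocyte list, bta-miR-150, a miRNA of mature B and T cells, had a log2 fold change of −0.08, bta-miR-342 had −0.14, bta-miR-155, which rises in activated lymphocytes, had −0.25, and bta-miR-181a, known from lymphocyte development, had 0.33. bta-miR-181b had 0.32 and bta-miR-146a 0.17, so that 3 of the 6 miRNAs in the lymphocyte list were above 0, with a median of 0.05.

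**Figure D5:**
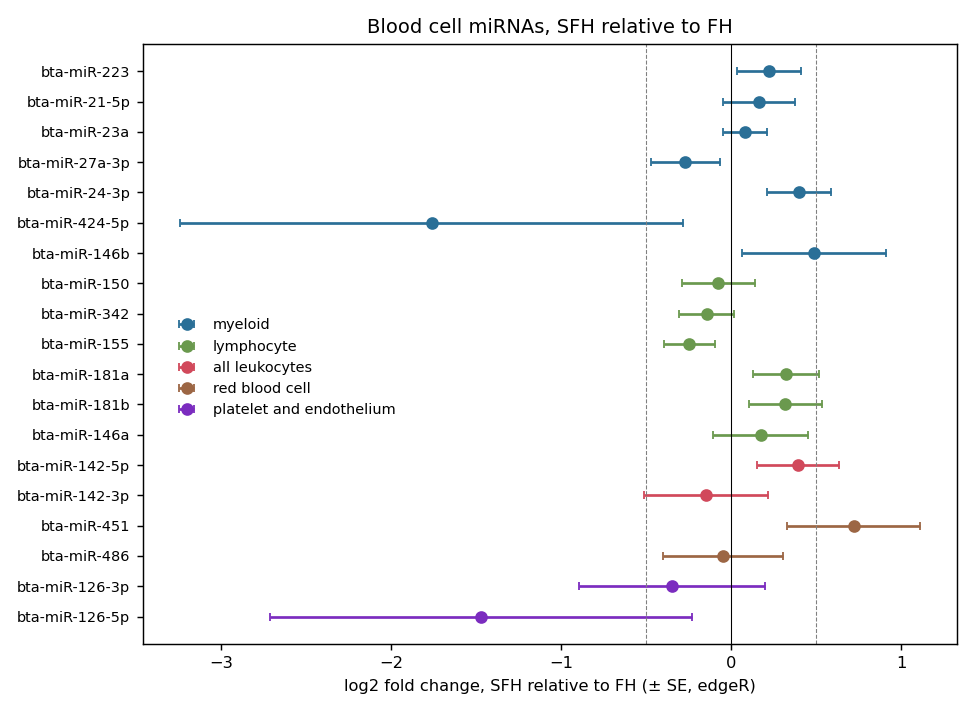
Log2 fold change of each tested miRNA of the blood cell lists (SFH relative to FH, horizontal axis, with bars of ± standard error from edgeR), coloured by list, with dashed lines at the threshold of 0.5. bta-miR-223 lies at 0.22, bta-miR-142-5p at 0.39 and bta-miR-142-3p at −0.15, and no listed miRNA passed both thresholds in this fit of the 341 miRNAs.

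The ratio of bta-miR-223 to bta-miR-150 set a myeloid against a lymphocyte miRNA within the same library. bta-miR-223 had fewer counts than bta-miR-150 in all 14 heifers. The ratio in FH ran from 0.173 in heifer 31 through a median of 0.256 to 0.327 in heifer 27, and in SFH from 0.218 in heifer 26 through a median of 0.289 to 0.447 in heifer 21. SFH heifers 17, 21 and 23 were above every FH heifer, and FH heifer 31 was below every SFH heifer. In CPM without TMM, SFH heifer 21 had the lowest bta-miR-150 of all heifers (34305) and the lowest bta-miR-223 of SFH (15335). Its high ratio thus came with a low bta-miR-150. This miRNA is 1 of the 6 in the lymphocyte list, of which 3 had log2 fold changes above 0. The mean log2 ratio differed by 0.35 (SFH minus FH), with a 95% interval of −0.08 to 0.78 (two-sided exact permutation p = 0.100, 7 heifers per group). Without SFH heifer 26 the difference was 0.44 (two-sided exact permutation p = 0.0408, n = 7 and 6), so the side of the threshold depended on that heifer.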

How the data were processed

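Small RNA of PWBC from 7 FH and 7 SFH heifers was sequenced, 1 library per heifer. The authors trimmed adapters and end bases with Cutadapt, aligned the reads with miRDeep2 to ARS-UCD1.2 and to miRBase v22.1, and deposited raw counts per mature miRNA and precursor, without normalization. The counts depend on where miRBase places each arm. They also deposited CPM of the 341 miRNAs with at least 1 CPM in at least 7 heifers, computed with edgeR 3.28.1 per the labels. For the 3 members these CPM equal the counts divided by the total over the 341.

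Per mature name, the entry with the highest total was used. The 341 miRNAs were fitted with edgeR 4.0.16 (TMM, quasi-likelihood F-test, group as the only term) in R 4.3.3. DESeq2 1.42.0 and limma 3.58.1 were alternatives. Standard errors were taken from the fold change and F statistic. Single values were compared over all 3432 arrangements of the heifers (smallest p 0.000583), and intervals hold the shifts, in steps of 0.01, that this exact test does not reject at 0.05. Arm ratios used raw counts with 0.5 added. Correlations used 100000 resamples, or all pairings within a group. These steps ran in Python 3.11.15 with scipy 1.17.1 and numpy 2.4.6. The fit and the permutation test were tested on simulated data.

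Depth was 1754971 to 5468341 counts on mature miRNAs per heifer. No pair of heifers had identical counts. Named miRNAs are the members, the cell lists, the 3 most alike by Spearman's rho, the 5 most abundant, and the miRNAs with the smallest and largest SD of, or nearest to miR-142 in, the arm ratio; sharing of seeds was not analysed here. The members and lists were chosen with earlier results of these data known. Alternatives were other scalings, tools, filters, precursor entries, a depth covariate, pseudocounts, scales, statistics and each heifer left out.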

Additional observations from a re-analysis of the deposited data

Results flagged for a closer look

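In the FH group, heifer 22 stood apart in bta-miR-142-3p, with 375 CPM where the next heifer of the group had 175 CPM. The gap between them was 0.618 of the range of the group, past Dixon's critical value for 7 samples. The same heifer had the highest bta-miR-142-5p of FH and the lowest 5p to 3p ratio of all heifers, 46.3.

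FH heifer 20 stood apart in the miR-142 arm ratio, with 198 counts of 5p for each count of 3p, and its gap to FH heifer 25 (101) was 0.637 of the range of the group. Its 3p arm had 129 counts, the fewest of all heifers, and its bta-miR-142-5p was 11170 TMM-normalized CPM, within the range of the other FH heifers. On the log2 scale neither gap passed the critical value, with 0.383 of the range for bta-miR-142-3p in FH heifer 22 and 0.461 for the arm ratio in FH heifer 20. In all, 10 groups of 7 values were examined in this way, of which chance would flag about 1 in 20. No cause of either value was tested.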

How the results depend on the processing

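bta-miR-223 kept its direction and its side of the thresholds in the 9 other settings of the model fit, with log2 fold changes from 0.14 to 0.30, and without each heifer in turn, from 0.15 to 0.30. bta-miR-142-5p did so in the 9 settings (0.33 to 0.45), and ranged from 0.27 to 0.54 with 1 heifer left out, past the thresholds only without FH heifer 22. bta-miR-142-3p changed sign with limma-voom (0.20), and with 1 heifer left out ranged from −0.30 to 0.21. In the exact permutation test it changed sign with the difference of medians (−0.17), and ranged from −0.12 to 0.34 with 1 heifer left out, below 0 without FH heifer 20 (−0.10) or FH heifer 25. In the same test bta-miR-223 ranged from 0.16 to 0.33 and bta-miR-142-5p from 0.22 to 0.49 with 1 heifer left out.

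The number of miRNAs past the thresholds was 13, and became 23 with limma-voom, 126 of 614 without a filter, 20 of 434 with every precursor entry kept, and 11 to 22 with 1 heifer left out (22 without FH heifer 24, 20 without SFH heifer 26). With library totals only, 7 miRNAs were higher and 7 lower, beside 5 higher and 8 lower with TMM, and with limma-voom 15 were higher and 8 lower. The median log2 fold change of all miRNAs was 0.06 with TMM, 0.12 with library totals and 0.14 with limma-voom.

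The arm ratio difference ranged from 0.15 to 0.50 with 1 heifer left out (exact permutation p from 0.0781 to 0.651), and the ratio to bta-miR-150 from 0.26 to 0.44. The spread difference of bta-miR-142-3p was −0.51 around group means, past the threshold, and −0.59 to −0.34 with 1 heifer left out. It passed without FH heifer 24, 27 or 29. The spread difference of the arm ratio ranged from −0.18 to 0.071, and changed sign without FH heifer 20. The number of miRNAs with a different arm ratio was 1 of 31, 0 of 13 with at least 100 counts on both arms, and 1 to 4 with 1 heifer left out (4 without SFH heifer 28, 3 without FH heifer 25 or 27, 2 without FH heifer 29 or 31 or SFH heifer 32). The correlation of bta-miR-223 with the log2 total count was 0.12 with TMM and −0.038 with library totals only. The cause of these changes was not tested. No paired analysis was possible because the heifers carry no shared replicate numbers. For bta-miR-142-3p, with 129 to 801 counts per heifer, counting error alone would give a coefficient of variation of 3.53 to 8.80%, beside 52.6% between heifers.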

Other observations

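Depth was compared with the members across the 14 heifers. The log2 total count had r = 0.12 with bta-miR-223 (permutation p = 0.669, adjusted 0.726 over 11 relations; rho = 0.15, permutation p = 0.603), r = −0.16 with bta-miR-142-5p (permutation p = 0.591; rho = −0.13, permutation p = 0.670), r = −0.22 with bta-miR-142-3p (permutation p = 0.463; rho = −0.13, permutation p = 0.650) and r = 0.12 with the log2 arm ratio (permutation p = 0.693; rho = 0.24, permutation p = 0.408). FH heifers 25 and 27, the farthest from the median total, moved the first r to 0.34, the second to 0.19, the third to −0.05 and the last to 0.20 when left out.

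Within SFH, bta-miR-451 and bta-miR-142-3p had r = 0.82 (exact permutation p = 0.0212, n = 7) and rho = 0.79 (exact permutation p = 0.0480), whereas within FH r was 0.05 (exact permutation p = 0.906, n = 7) and over all 14 heifers 0.27 (permutation p = 0.344, adjusted 0.637). These within-group p-values are unadjusted, and the difference between the groups was not tested. With the log2 arm ratio, bta-miR-451 had r = 0.27 (permutation p = 0.347, adjusted 0.637) over 14 heifers.

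Muscle miRNAs were sparse. bta-miR-1 was counted in 12 heifers, with means of 13.9 ± 24.5 CPM over the FH and 29.0 ± 65.0 CPM over the SFH heifers (± SD, 7 each), bta-miR-133a in 4 heifers and bta-miR-206 in 2. Among miRNAs of platelets and endothelium, bta-miR-126-3p was present in all 14 heifers and bta-miR-126-5p in 11. bta-miR-126-3p had means of 35.5 ± 16.8 CPM over the FH and 29.0 ± 13.6 CPM over the SFH heifers. Both arms had far fewer counts than bta-miR-223, but counts of different miRNAs do not measure platelet content. The part of platelet RNA in the level of bta-miR-223 was not tested.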
